A study of Mus musculus with 18 samples.

Results

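The 10 integrin genes described here encode subunits of matrix receptors: the α subunit genes *Itga1*, *Itga3*, *Itga5*, *Itga6*, *Itga7*, *Itga11* and *Itgav*, and the β subunit genes *Itgb1*, *Itgb3* and *Itgb5*. They were chosen by name, and all 10 were present among the 9435 genes of the knockdown table and among the 9472 genes of the overexpression table. Their annotated splicing events numbered 714 of 661941 in the splicing table. Expression and splicing were followed in mouse embryonic fibroblasts (MEFs) converted towards induced pluripotent stem cells by forced expression of OCT4, SOX2, KLF4 and MYC (OSKM), in 18 libraries with 2 per group. All groups came from MEFs of male embryos of the genotype *Collagen-OKSM*, *M2rtta*+, in which doxycycline switches on the factors from a cassette in the collagen locus. In the knockdown (KD) dataset, non-infected cells (NI) at day 0 stood beside day 12 cells that carried a scrambled shRNA (shSCR), 1 of 2 shRNAs against *Cpsf3* (shCPSF3#1, shCPSF3#2) or 1 of 2 against *Hnrnpul1* (shUL1#1, shUL1#2). In the overexpression (OE) dataset, NI cells at day 0 stood beside day 12 cells with the empty retroviral vector (Empty) or with T7-tagged *Tia1* (T7-TIA1). Day 12 cells had been infected, sorted for GFP and grown on irradiated MEF feeders that were harvested with them, while day 0 cells had been neither infected nor sorted, so feeder RNA cannot be told apart from that of the reprogrammed cells. No source used here says whether the 2 libraries of a group came from separate embryos, and p-values therefore measure only the spread between these libraries.

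Integrins are receptors made of an α and a β subunit that bind the extracellular matrix outside the cell and link it to the actin cytoskeleton inside. The β1 chain pairs with many α chains: α5β1 binds fibronectin, α1β1 and α11β1 bind collagens, and α3β1, α6β1 and α7β1 bind laminins, whereas αv pairs with β1, β3 or β5 and binds vitronectin and other RGD proteins. The cytoplasmic tails of α3, α6 and α7 exist in an A and a B form, made by inclusion or skipping of one exon near the 3′ end of the coding sequence, and the B form of α6 is the one described in mouse embryonic stem cells.

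The coding sequences of these alternative tails are shown because the *Itga6* tail exon was the integrin event with the largest change in PSI. PSI, percent spliced in, is the share of transcripts that include an exon. When the exon is included, translation ends inside it, and when it is skipped, translation runs into the last exon. The letters run 5′ to 3′ from the first base of the exon to the stop codon, which is in capitals. They come from the GENCODE transcripts of GRCm38, the assembly also known as mm10.
Itga6 A tail: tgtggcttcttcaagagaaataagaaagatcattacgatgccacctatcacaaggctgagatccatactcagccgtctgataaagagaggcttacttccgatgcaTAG
Itga6 B tail: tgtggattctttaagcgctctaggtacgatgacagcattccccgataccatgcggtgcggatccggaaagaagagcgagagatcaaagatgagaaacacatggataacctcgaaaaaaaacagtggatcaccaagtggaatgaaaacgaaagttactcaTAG
Itga3 A tail: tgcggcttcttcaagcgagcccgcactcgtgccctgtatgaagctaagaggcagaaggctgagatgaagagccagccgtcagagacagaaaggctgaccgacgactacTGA
Itga3 B tail: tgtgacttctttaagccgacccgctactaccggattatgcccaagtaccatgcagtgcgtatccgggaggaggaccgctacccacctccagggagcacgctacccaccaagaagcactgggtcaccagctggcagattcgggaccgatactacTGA

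The *Itga6* A tail lies at chr2:71853534-71853641 on the plus strand and is 108 nt long, and its B tail lies at chr2:71855854-71856015 and is 162 nt long. On the minus strand, the *Itga3* A tail lies at chr11:95046480-95046590 and is 111 nt long, and its B tail lies at chr11:95045608-95045763 and is 156 nt long. In a global alignment the A tails of the 2 genes were identical at 60.2% of 123 aligned columns and their B tails at 61.3% of 173. The A and B tails of *Itga6* itself were identical at 46.8% of 171 columns and those of *Itga3* at 53.8% of 160. These percentages count gap columns, which the unequal lengths of A and B tails force. In identical bases the A tails of the 2 genes shared 74, the A and B tails of *Itga6* 80 and those of *Itga3* 86. Which tails are closest therefore depends on the measure.

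The files state no depth. If the step between neighbouring low values is taken as 1 read, which could not be verified, the listed genes held an estimated 98882289 to 109047542 reads per library. The perturbed genes moved as labelled. *Cpsf3* fell from 86.7 and 118 scaled CPM in shSCR to 38.6–77.1 in the 4 shCPSF3 libraries, *Hnrnpul1* fell from 156 and 185 to 38.7–85.8 in the 4 shUL1 libraries, and *Tia1* rose from 85.6 and 77.0 in Empty to 613 and 469 in T7-TIA1. Groups labelled for another factor also differed from shSCR. *Hnrnpul1* had 118 and 131 with shCPSF3#1. *Tia1* had 82.4–113 over the shCPSF3 and shUL1 libraries, against 69.7 and 66.7 in shSCR. These differences were not tested. Scaled CPM are the authors' CPM values, relative to a library size that they scaled for each library. Of 15 fibroblast markers, 12 were listed in the KD table and none of these was at 0, and their summed level was 15284–18386 scaled CPM in NI and 6603–7311 in shSCR. Of these 12, 5 passed as lower in shSCR and 1 as higher, where 22% and 22.5% of all genes did. The higher one was *Lum*, at 3.85 and 5.18 scaled CPM in NI and 54.2–167 in shSCR, whose low NI level lies at the minimum of 5 for listing in the table, so that its rise is a description. *Dcn* had a log2 fold change of 3.39 and did not pass (adjusted p = 0.0918). The sum was 16656–27184 over the shCPSF3 libraries and 14256–31830 over the shUL1 libraries, above shSCR in each library. In the OE table the sum of 11 listed markers was 17019–38863 in NI, 6467–7249 in Empty and 5321–5687 in T7-TIA1. Of 16 epithelial markers only *Krt8*, *Krt18*, *Krt19* and *Dsp* were listed in the KD table, with sums of 51.2–64.3 in NI, 413–695 in shSCR, 55.8–285 with shCPSF3 and 109–314 with shUL1. Of 7 leukocyte markers *Cd68*, *Lyz2* and *Csf1r* were listed in the KD table, and their sum was 9.57–10.6 in NI, 171–300 in shSCR, 429–1814 with shCPSF3 and 259–1000 with shUL1. Of the other marker lists 1 gene each was listed, in the KD table alone. The pluripotency gene *Tet1* had 4.90–5.26 in NI, 137–335 in shSCR, 24.6–243 with shCPSF3 and 50.7–203 with shUL1. The endothelial *Tek* had 1.15–1.51, 25.0–29.7, 18.3–63.9 and 41.9–143 in the same order, and the muscle gene *Des* 54.1–54.8, 13.8–15.4, 6.13–20.3 and 8.12–36.6. *Lyz2*, *Csf1r*, *Dsp* and *Tek* had at most 2.99, 2.23, 1.82 and 1.51 in NI, under the minimum of 5. They were listed only through day 12 libraries where they were high, so their rises from NI are a description. The part that these shifts in marker levels play in the integrin differences was not tested.

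At day 0, per kilobase of the longest coding transcript, *Itgb1* had the highest level of the integrin genes, followed by *Itga5* and *Itgav*. In the KD dataset, the level per kilobase in NI was 697 ± 95.6 (SD, n = 2) for *Itgb1*, 164 ± 15.5 for *Itga5* and 92.3 ± 0.391 for *Itgav*, and these 3 did not overlap. *Itgb5* (44.8 ± 6.78) and *Itga6* (40.2 ± 11.6) overlapped, as did *Itga11* (18.2 ± 1.91) and *Itga3* (16.8 ± 0.839), and *Itgb3*, *Itga7* and *Itga1* came last, at 4.52, 3.57 and 1.45. The order in the NI cells of the OE dataset began with the same 4 genes, *Itgb1*, *Itga5*, *Itgav* and *Itgb5*, but every pair of neighbours between *Itgb5* and *Itgb3* in that order overlapped. At day 12 *Itgb5* was second in all 7 groups, and *Itga5* stood between rank 4 and rank 6.

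Among the 7 α genes, the share of *Itga5* in their summed level per kilobase was 49.2% and 48.0% in the NI libraries of the KD dataset and 17.2% and 14.7% in shSCR. With shCPSF3#1 its share was 27.7% and 31.4%, with shCPSF3#2 24.5% and 24.3%, with shUL1#1 27.2% and 22.4%, and with shUL1#2 19.1% and 18.5%, all above both shSCR libraries. In the OE dataset *Itga5* held 57.4% and 45.7% in NI, 13.5% and 13.1% in Empty and 16.0% and 13.5% in T7-TIA1. The share of *Itga6* moved the other way in the OE dataset, from 7.42% and 3.11% in NI to 32.8% and 32.2% in Empty. In the KD dataset it was 13.6% and 10.1% in NI against 16.0% and 32.8% in shSCR, so that both shSCR libraries were above NI but far from each other. *Itgav* stayed between 22.4% and 46.3% in all 18 libraries. Shares of a sum depend on one another and were not tested.

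**Figure D1:**
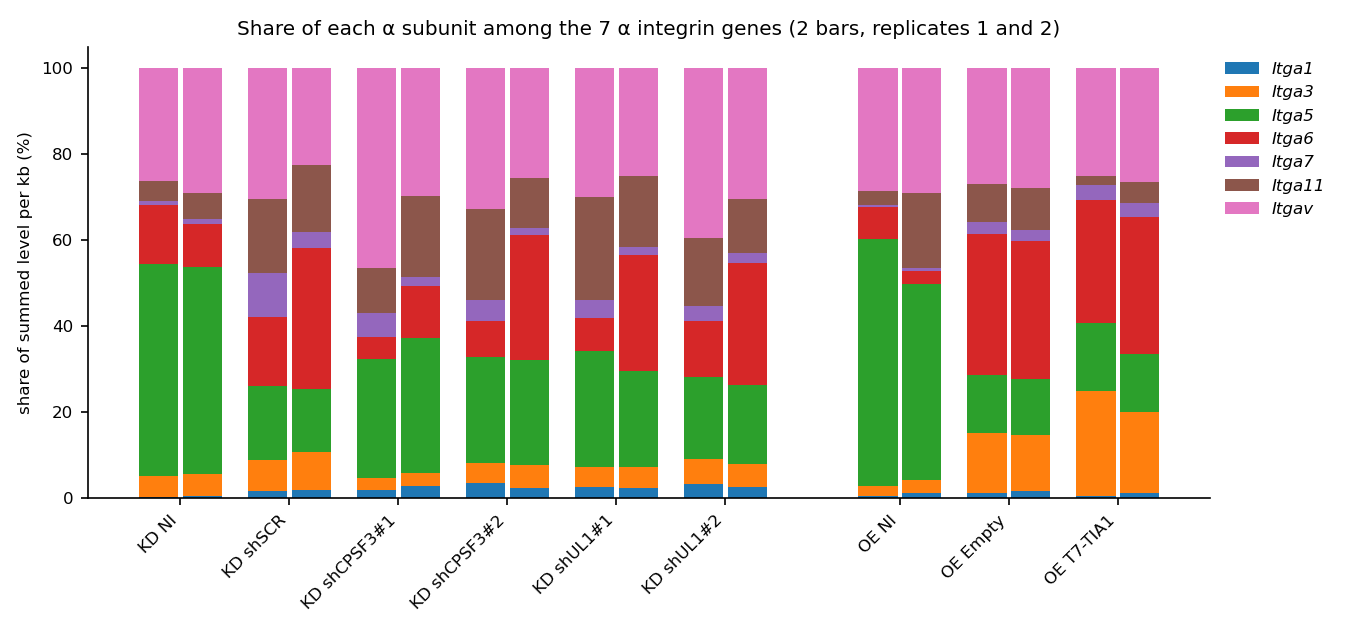
Share of each of the 7 α subunit genes (percent, y axis) in their summed level per kilobase, with a bar for each of the 18 libraries. *Itga5* takes 45.7% to 57.4% of the sum at day 0 and 13.1% to 31.4% at day 12.

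Which integrins change as fibroblasts are reprogrammed was read from shSCR and from Empty, each against its own NI cells. In shSCR, the fibronectin receptor chain *Itga5*, its partner *Itgb1*, *Itgav* and *Itga3* fell, and *Itgb5*, a partner of αv, rose: 1 of the 10 genes rose and 4 fell in the *limma* test at an adjusted p under 0.05, where 44.5% of all 9435 genes passed, 22.5% higher and 22% lower. In Empty, 6 of 10 passed, where 46.5% of all 9472 genes did, 22.8% higher and 23.6% lower: *Itga5*, *Itgb1*, *Itgav* and *Itgb3* fell, and *Itga3* and *Itga7* rose. The median log2 fold change over the 10 genes was 0.13 in shSCR and −0.70 in Empty, against 0.00 and 0.01 over all genes. In these bulk samples, fewer cells of a type and less RNA per cell cannot be told apart.

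*Itga5* had 765 and 669 scaled CPM in NI and 132 and 83.9 in shSCR. It had 1075 and 546 in the NI libraries of the OE dataset and 82.2 and 74.5 in Empty. In both datasets the day 12 libraries lay far below day 0. The log2 fold change was −2.75 ± 0.25 (SE, adjusted p = 0.000138, *limma*) in shSCR and −3.27 ± 0.33 (adjusted p = 0.00184) in Empty.

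*Itgb1* had 2917 and 2401 scaled CPM in NI and 746 and 643 in shSCR, a log2 fold change of −1.93 ± 0.21 (adjusted p = 0.000266). In the OE dataset it had 2862 and 1839 in NI and 677 and 740 in Empty, a log2 fold change of −1.70 ± 0.23 (adjusted p = 0.00385). *Itgb1* was the β gene with the highest level in every library, and its share in the summed level per kilobase of the 3 β genes was 92.1–94.5% in NI of the KD dataset and 66.9–70.9% in shSCR. The groups did not overlap in either dataset.

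*Itgav* had 653 and 649 scaled CPM in NI and 376 and 205 in shSCR, a log2 fold change of −1.22 ± 0.39 (adjusted p = 0.0348). This call depended on single libraries, since adjusted p was 0.124, 0.119 and 0.193 without NI replicate 1, NI replicate 2 and shSCR replicate 2, and 0.0507 with quantile normalization. In the OE dataset it had 857 and 559 in NI and 264 and 253 in Empty (log2 fold change −1.42 ± 0.21, adjusted p = 0.0047). The 2 shSCR libraries were far apart, both below NI, whereas the Empty libraries were close together.

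*Itgb5* had 131 and 163 scaled CPM in NI and 273 and 213 in shSCR, a log2 fold change of 0.72 ± 0.25 (adjusted p = 0.0445) that lost its call without any one of the 4 libraries (adjusted p from 0.0567 to 0.218) and with median scaling (adjusted p = 0.0729). In the OE dataset NI had 138 and 251 and Empty 257 and 302. The log2 fold change of 0.58 did not pass the test (adjusted p = 0.146). Over the alternatives tried it ranged from 0.15 to 1.01, the highest without NI replicate 2.

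*Itga3*, the α chain of a laminin receptor, differed in direction between the datasets. It had 84.7 and 78.9 scaled CPM in NI and 63.0 and 55.6 in shSCR, a log2 fold change of −0.46 ± 0.14 (adjusted p = 0.0254). In the OE dataset it had 50.4 and 39.8 in NI and 93.5 and 81.5 in Empty, a log2 fold change of 0.95 ± 0.22 (adjusted p = 0.0186). The shSCR call was lost without NI replicate 1, NI replicate 2 or shSCR replicate 2 (adjusted p from 0.0718 to 0.132 over these), with quantile normalization (0.0572) and with only the groups compared (0.0599). The Empty call was lost without Empty replicate 1 or replicate 2 (adjusted p = 0.121 and 0.0709). The tables were scaled separately, and the difference between the datasets was not tested.

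*Itga7* had 14.6 and 14.1 scaled CPM in NI against 73.1 and 19.4 in shSCR, with a wide gap between the shSCR libraries (log2 fold change 1.34 ± 0.84, adjusted p = 0.226). Without single libraries this log2 fold change ranged from 0.41 to 2.27. In the OE dataset it rose from 8.24 and 8.08 in NI to 16.0 and 12.5 in Empty, a log2 fold change of 0.72 ± 0.16 (adjusted p = 0.0157, but 0.102 without Empty replicate 1 and 0.0575 with quantile normalization). *Itgb3*, the other vitronectin receptor β chain, fell in the OE dataset from 37.6 and 54.4 to 16.9 and 14.8, a log2 fold change of −1.46 ± 0.23 (adjusted p = 0.00546). In the KD dataset it had 28.4 and 23.9 in NI and 78.6 and 23.6 in shSCR and did not pass the test (adjusted p = 0.254). Here 1 library decided both call and direction, since the log2 fold change was 1.56 without shSCR replicate 2 (adjusted p = 0.00614) and −0.14 without shSCR replicate 1 (adjusted p = 0.727).

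The level of *Itga6* as a whole did not pass the test in either dataset. It had 209 and 138 scaled CPM in NI and 121 and 183 in shSCR (log2 fold change −0.19 ± 0.68, adjusted p = 0.843), and 137 and 36.6 in NI of the OE dataset against 197 and 180 in Empty (log2 fold change 1.40 ± 0.57, adjusted p = 0.0924). The NI libraries of the OE dataset were far apart. Without NI replicate 1 the log2 fold change was 2.33 (adjusted p = 8.41e-05), and without NI replicate 2 it was 0.46 (adjusted p = 0.007), the lone NI library being taken to vary like the other groups. The collagen receptor genes *Itga1* and *Itga11* did not pass in either dataset. *Itga1* had 12.4 and 19.5 scaled CPM in NI and 29.9 and 26.7 in shSCR, and *Itga11* had 69.2 and 233 in NI of the OE dataset against 61.0 and 64.1 in Empty. Over the alternatives tried, the log2 fold change of *Itga11* in Empty ranged from −1.88, without NI replicate 1, to −0.14.

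**Figure D2:**
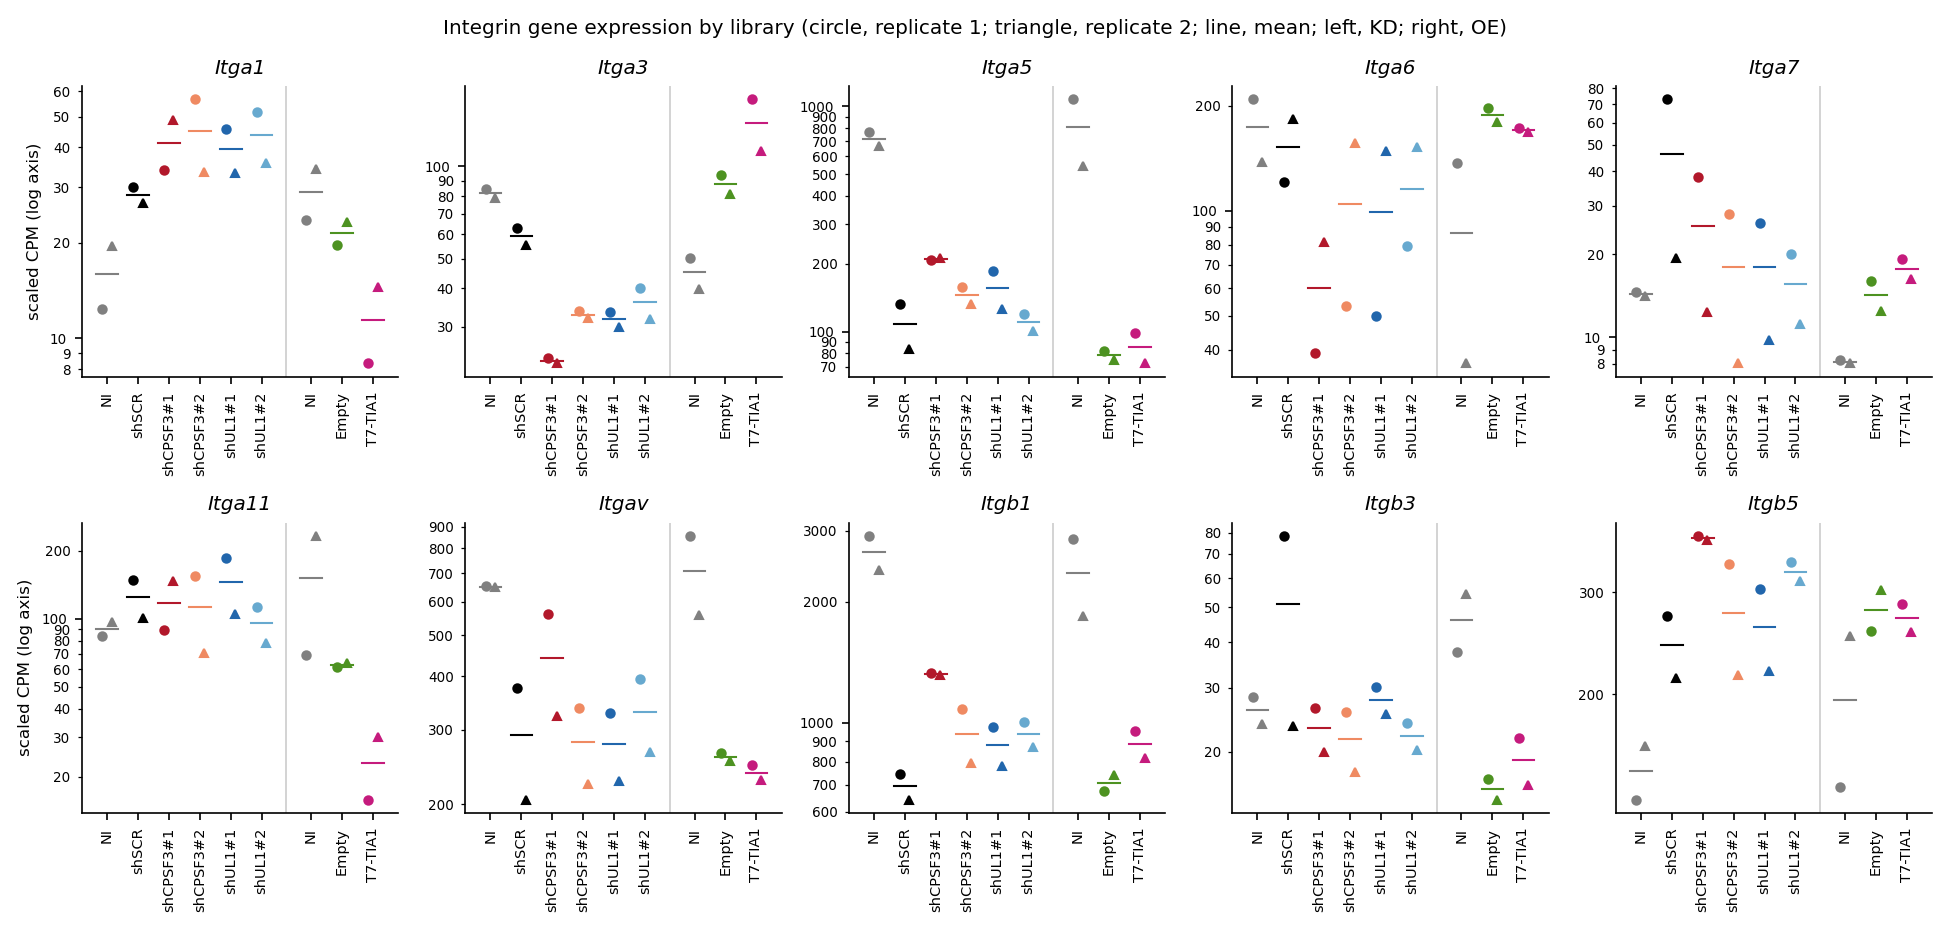
Expression of the 10 integrin genes in each library, in scaled CPM on a log axis whose range differs between panels; circles are replicate 1, triangles replicate 2 and lines group means, with the KD dataset left of the grey line and the OE dataset right of it. *Itga5* and *Itgb1* lie lower in every day 12 library than in every NI library, and *Itga3* lies lower in the 8 knockdown libraries (22.8 to 40.2) than in both shSCR libraries (63.0 and 55.6).

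The effect of the knockdowns was read against shSCR at day 12, as the mean of both shRNAs of a factor. The clearest integrin difference was *Itga3*, which was lower with each of the 4 shRNAs. With shCPSF3, 3 of the 10 genes passed the test, where 26.1% of all genes did, 16.7% higher and 9.35% lower: *Itga3* fell, and *Itga5* and *Itgb1* rose. With shUL1 only *Itga3* passed, lower, where 10.5% of all genes passed, 7.31% higher and 3.15% lower. Both comparisons share the shSCR libraries. Same-numbered day 12 libraries deviated together, and with the replicate number as a block 5 genes passed with shCPSF3 (*Itga7* and *Itgb3* lower in addition) and 3 with shUL1 (*Itga7* lower and *Itgb1* higher in addition). Over all genes the block called 27.2% higher and 22.6% lower with shCPSF3 and 16.5% higher and 12.8% lower with shUL1.

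*Itga3* had 63.0 and 55.6 scaled CPM in shSCR. It had 23.7 and 22.8 with shCPSF3#1, 33.6 and 32.0 with shCPSF3#2, 33.5 and 30.0 with shUL1#1, and 40.2 and 31.9 with shUL1#2. All 8 knockdown libraries lay below both shSCR libraries. The log2 fold change was −1.07 ± 0.12 with shCPSF3 (adjusted p = 0.00177) and −0.79 ± 0.12 with shUL1 (adjusted p = 0.00925). The shCPSF3 call held without each of the 6 libraries, and the shUL1 call was lost only without shSCR replicate 1 (adjusted p = 0.0607) among these, and also with only the groups compared (0.068).

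*Itga5* had 132 and 83.9 scaled CPM in shSCR, 208 and 213 with shCPSF3#1, and 157 and 132 with shCPSF3#2. Its log2 fold change with shCPSF3 was 0.72 ± 0.22 (adjusted p = 0.0432, block 0.0051), and the call was lost without 4 of the 6 libraries, shSCR replicate 2 most (log2 fold change 0.39, adjusted p = 0.328). It was also lost with median scaling, quantile normalization and only the groups compared (adjusted p = 0.0529, 0.056 and 0.109). *Itgb1* had 746 and 643 in shSCR, 1331 and 1313 with shCPSF3#1, and 1082 and 793 with shCPSF3#2, a log2 fold change of 0.68 ± 0.18 (adjusted p = 0.0281, block 0.00331), and its call was lost without 5 of the 6 (adjusted p from 0.0586 to 0.191), all but shCPSF3#2 replicate 2, and with only the groups compared (adjusted p = 0.109). With shCPSF3#2 alone neither gene passed (adjusted p = 0.328 for *Itga5* and 0.272 for *Itgb1*). With shUL1 *Itga5* had 101–185 and *Itgb1* 782–1002 scaled CPM, and neither passed without the block (adjusted p = 0.402 and 0.199). All of these levels were far below those of NI.

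The 2 shSCR libraries differed most in *Itga7* and *Itgb3*. Their shSCR libraries had 73.1 and 19.4, and 78.6 and 23.6 scaled CPM, against 8.04–38.3 and 17.6–26.4 with shCPSF3. The log2 fold changes with shCPSF3 were −1.02 ± 0.72 for *Itga7* (adjusted p = 0.309, block 0.0399) and −0.93 ± 0.41 for *Itgb3* (adjusted p = 0.12, block 0.0293). With shUL1 *Itga7* had 9.75–26.1 and a log2 fold change of −1.24 ± 0.72 (adjusted p = 0.297, block 0.0322). *Itgb1* had 0.38 ± 0.18 with shUL1 (adjusted p = 0.199, block 0.0446). Without shSCR replicate 1 the log2 fold change of *Itga7* shrank to −0.09 with shCPSF3 and −0.31 with shUL1, and that of *Itgb3* with shCPSF3 to −0.09. Without shSCR replicate 2 that of *Itgb3* was −1.78 (adjusted p = 0.017). With shUL1 *Itgb3* had 20.2–30.1 scaled CPM and did not pass (adjusted p = 0.247), with −1.63 without shSCR replicate 2 (adjusted p = 0.0357) and 0.06 without shSCR replicate 1.

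*Itga6* had 121 and 183 scaled CPM in shSCR, 39.2 and 81.1 with shCPSF3#1, 53.5 and 156 with shCPSF3#2, 49.9 and 149 with shUL1#1, and 79.0 and 152 with shUL1#2. In each of the 4 knockdown groups replicate 2 was well above replicate 1, as in shSCR. Within each replicate number every knockdown library was below its shSCR library, but the differences did not pass the test, with log2 fold changes of −1.04 ± 0.59 for shCPSF3 (adjusted p = 0.212, block 0.059) and −0.61 ± 0.59 for shUL1 (adjusted p = 0.531). *Itga1*, *Itga11*, *Itgav* and *Itgb5* did not pass with either factor, with or without the block. Directly against each other, shCPSF3 and shUL1 gave 0 of 10 calls, where 0.0424% of all genes passed. The lowest adjusted p values in *limma* were those of *Itga3* (log2 fold change −0.28 ± 0.10, adjusted p = 0.302) and *Itga5* (0.43 ± 0.18, adjusted p = 0.372), and these 2 genes had an unadjusted p under 0.05, as 12.8% of all genes did. Nor did any of the 10 genes pass between the 2 shRNAs of either factor. The share of all genes passing there was not counted. Between shCPSF3#1 and shCPSF3#2, *Itga3* differed by −0.48 on the log2 scale (unadjusted p = 0.00745, adjusted p = 0.391, *limma*). *Itgb1* differed by 0.51 (unadjusted p = 0.0372, adjusted p = 0.408).

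With T7-TIA1 against Empty, 0 of 10 integrin genes passed in *limma*, where 0% of all genes did and 393 of 9472 had an unadjusted p under 0.05. *Itga3* had 166 and 112 scaled CPM in T7-TIA1 and 93.5 and 81.5 in Empty (log2 fold change 0.64 ± 0.22, unadjusted p = 0.0295, adjusted p = 0.999). *Itga1* had 8.35 and 14.6 against 19.7 and 23.3 (−0.90 ± 0.29, unadjusted p = 0.0244, adjusted p = 0.999), and *Itga11* had 15.8 and 30.2 against 61.0 and 64.1 (−1.47 ± 0.59, unadjusted p = 0.0491, adjusted p = 0.999). The 2 T7-TIA1 libraries lay on one side of both Empty libraries for each of these 3 genes, but none of the differences passed the adjustment over all genes.

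**Figure D3:**
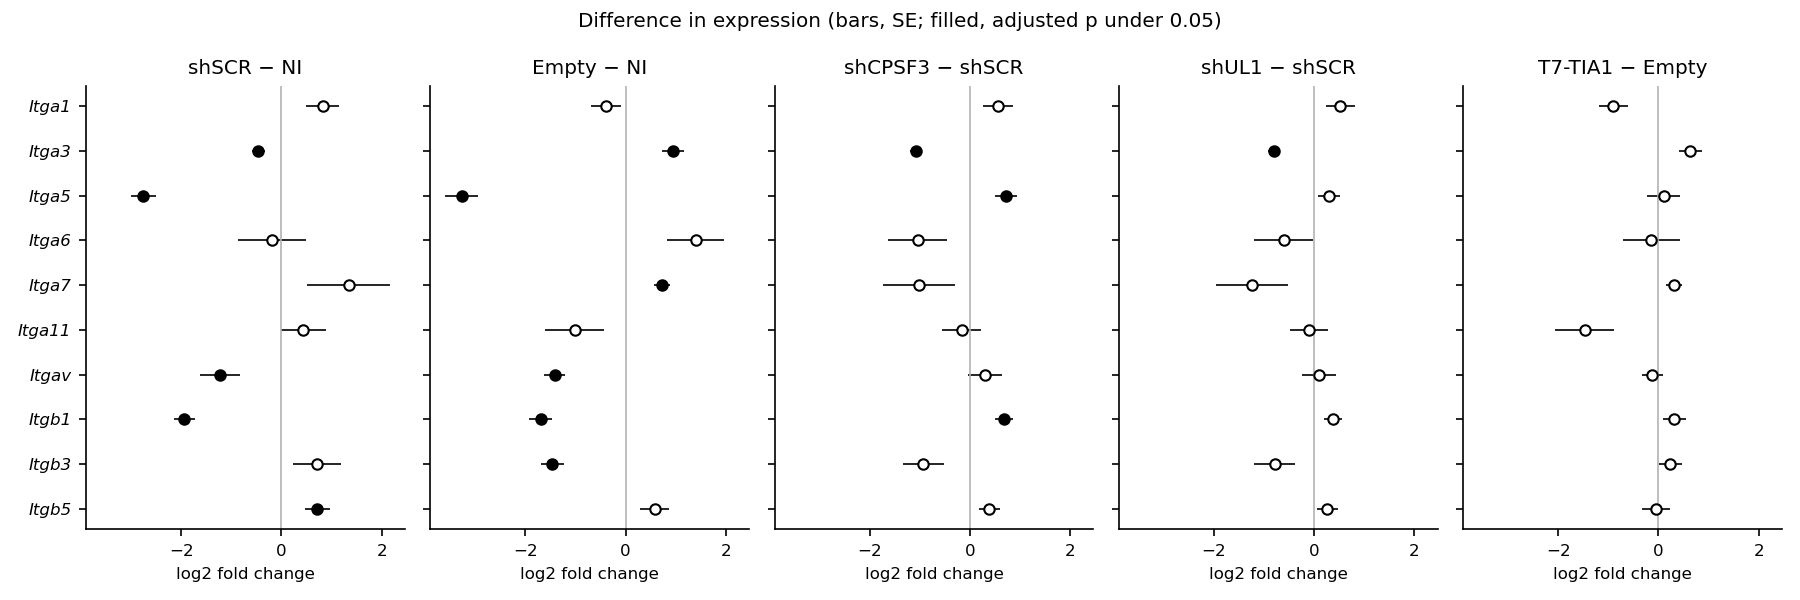
Log2 fold change (x axis) of each integrin gene in the 5 comparisons with a control; bars are standard errors and filled points passed the *limma* test at an adjusted p under 0.05. Filled points number 5, 6, 3, 1 and 0 from left to right, and *Itga3* is the gene filled in the first 4 panels.

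Genes that act with integrins were read from lists. Of 23 measured genes of the integrin adhesion complex, which couples the receptors to actin, 18 fell and 0 rose in shSCR (median log2 fold change −1.27), and 16 fell and 0 rose in Empty (−1.19). Over all genes 22% were called lower in shSCR and 23.6% in Empty, with medians of 0.00 and 0.01. The largest falls were those of the focal adhesion proteins *Tgfb1i1* (−2.65 ± 0.38, adjusted p = 0.00098 in shSCR), *Flna* (−2.39 ± 0.26, adjusted p = 0.000291) and *Zyx* (−2.27 ± 0.26, adjusted p = 0.000384), the same 3 genes as in Empty. With shCPSF3 5 of the 23 rose and 0 fell, with shUL1 2 rose and 0 fell, and with the block 10 rose and 0 fell with shCPSF3 and 9 rose and 1 fell with shUL1. Without the block these shares were near the 16.7% and 7.31% of all genes called higher, and with the block 27.2% and 16.5% of all genes were called higher. *Tns1*, a tensin, rose by 0.85 ± 0.15 on the log2 scale with shCPSF3 (adjusted p = 0.0078) and by 0.69 ± 0.15 with shUL1 (adjusted p = 0.0296), *Lpp* rose with both, and *Flna* rose by 0.77 with shCPSF3 (adjusted p = 0.0397).

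Of 23 measured matrix ligands, 5 rose and 4 fell in shSCR, and of 22 measured in the OE dataset, 2 rose and 10 fell in Empty. The shSCR shares were near the 22.5% and 22% of all genes called higher and lower, and in Empty 22.8% and 23.6% of all genes were. With the block 6 rose and 10 fell in shSCR, where 29.9% and 29.6% of all genes did. Osteopontin, *Spp1*, an RGD ligand, rose from 174–185 to 2236–4234 scaled CPM in shSCR (log2 fold change 4.10 ± 0.36, adjusted p = 0.000125) and by 2.31 in Empty. *Tgfbi* rose by 3.99 in shSCR. *Lama1*, a laminin chain, had 2.21 and 2.95 scaled CPM in NI and 71.7–80.9 in shSCR (log2 fold change 4.44), but a gene under 5 in NI was listed only through the day 12 libraries where it was high, so its rise, 1 of the 5 above, is a description. In shSCR *Postn*, *Col1a1* and *Lama2* had the largest falls (−2.59, −2.30 and −1.74). In Empty the largest falls were those of *Tnc*, tenascin C (−3.49), *Postn* (−3.47) and *Col1a1* (−3.18). The laminin chain *Lama5* rose from 36.8–70.2 to 472–546 in Empty (3.29 ± 0.29, adjusted p = 0.0014) and was lower with shCPSF3 than with shSCR (−1.54 ± 0.26, adjusted p = 0.00628) and with shUL1 (−1.01 ± 0.26, adjusted p = 0.0456). With shCPSF3 8 ligands rose and 1 fell (16.7% and 9.35% of all genes), and with shUL1 6 rose and 2 fell (7.31% and 3.15% of all). With the block these counts were 10 and 2 (27.2% and 22.6% of all) and 8 and 2 (16.5% and 12.8%). The collagen chain *Col3a1* rose by 2.54 ± 0.41 on the log2 scale with shCPSF3 (adjusted p = 0.00562) and by 2.48 ± 0.41 with shUL1 (adjusted p = 0.0128), and *Postn*, like *Col3a1* also on the fibroblast marker list, rose with both (2.86 and 2.66). *Edil3* rose by 2.23 with shCPSF3, *Col1a1* rose by 1.55 with shUL1, and *Lama1* was lower with shUL1 (−0.86, adjusted p = 0.0496).

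Of 12 membrane partners, 3 rose and 2 fell in shSCR and 2 rose and 3 fell in Empty, shares near those of all genes in shSCR (22.5% higher and 22% lower) and in Empty (22.8% and 23.6%). The tetraspanin *Cd9*, which associates with integrins, rose from 111–114 to 311–474 scaled CPM in shSCR (1.77 ± 0.20, adjusted p = 0.000326) and was lower with shCPSF3 (168–209, adjusted p = 0.00604) and with shUL1 (182–206, adjusted p = 0.0141) than with shSCR. Caveolin, *Cav1*, fell in shSCR (−2.43) and Empty (−2.09) and was higher with shCPSF3 than with shSCR (1.00, adjusted p = 0.0343). In shSCR *Cd81* (0.82) and *Bsg* (0.72) rose and *Plaur*, the urokinase receptor, fell (−2.79), and in Empty *Cd9* (1.03) and *Sdc4* (0.56) rose and *Cd63* (−0.95) and *Thy1* (−0.92) fell. With shCPSF3 2 of the 12 rose, *Cav1* and the syndecan *Sdc1* (1.15), and 1 fell, *Cd9*, and with shUL1 0 rose and 2 fell, *Cd9* and *Bsg* (−0.50). Of all genes, 16.7% rose and 9.35% fell with shCPSF3, and 7.31% and 3.15% with shUL1. With the block 4 partners rose and 1 fell with shCPSF3 (27.2% and 22.6% of all genes). With shUL1 and the block 1 rose and 2 fell (16.5% and 12.8% of all genes). Of 16 other integrin subunits 4 were listed in the KD table. *Itgb4*, the partner of α6 in the hemidesmosomes of epithelia, had 1.58 and 1.63 scaled CPM in NI and 112–153 in shSCR (log2 fold change 5.66 ± 0.22). Like *Lama1* it was listed only through day 12 libraries, and no test is given. *Itga9* rose with shCPSF3 (1.13 ± 0.21, adjusted p = 0.00862). In Empty *Itga8* and *Itga9*, the 2 listed in the OE table, fell. With T7-TIA1 0 genes of any of these lists passed.

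Splicing of the integrin genes was dominated by the *Itga6* tail exon. Of the 714 annotated events, 671 were covered in all 18 libraries, with at least 10 reads each, and in 36 of them the mean PSI of at least 1 group lay between 5 and 95. In shSCR against NI, 18 of 524 tested events passed the read-level *limma* test, where 2.93% of all tested events did, but 17 of these had a change in PSI of at most 2.87 and lost the call once the added reads were scaled to the depth of the event. Only the *Itga6* tail exon then passed. In shCPSF3 1 of 524 passed (0.935% of all), in shUL1 0 (0.309% of all), between shCPSF3 and shUL1 0 (0% of all), in Empty against NI 1 of 472 (0.023% of all) and in T7-TIA1 0 (0.00329% of all). In the 3 comparisons with 0 calls, with shUL1, between the knockdowns and in T7-TIA1, 74, 33 and 31 integrin events had an unadjusted p under 0.05. These shares of 14.1%, 6.3% and 6.57% were close to the 13.4%, 6.99% and 6.18% of all tested events. By the rule used in the study, a difference in mean PSI of at least 10 with at least 5 between the libraries of the groups, 2 integrin events changed in shSCR (1.22% of all covered events), 1 with shCPSF3 (0.428%), 1 with shUL1 (0.368%), 0 between shCPSF3 and shUL1 (0.0067%), 2 in Empty (0.679%) and 0 in T7-TIA1 (0.342%).

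The tail exon of *Itga6*, chr2:71853534-71853663 with 130 nt, holds the A tail printed above. Its PSI was 76.4 and 84.6 in NI of the KD dataset and 79.9 and 84.7 in NI of the OE dataset, so that fibroblasts mostly included it. It was 23.4 and 18.8 in shSCR and 34.5 and 37.9 in Empty. The exon was mostly skipped in both controls at day 12, and neither group overlapped with its NI cells. The PSI fell by 59.4 in shSCR (adjusted p = 0.00171, read-level *limma* test) and fell by 46.1 in Empty (adjusted p = 0.0125). The Empty call was lost without any one of its 4 libraries (adjusted p from 0.231 to 0.593), whereas the shSCR call held without each of the 4 libraries (adjusted p from 0.015 to 0.0202). With only the groups compared neither passed (adjusted p = 0.127 in shSCR and 0.377 in Empty), and the Empty call was also lost with PSI in percent (0.11) and with no weights (0.0714).

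With the knockdowns the exon was included more than in shSCR. Its PSI was 79.5 and 69.5 with shCPSF3#1, 39.4 and 36.7 with shCPSF3#2, 47.1 and 40.6 with shUL1#1, and 61.8 and 46.7 with shUL1#2. All 8 knockdown libraries lay above both shSCR libraries, and those of shCPSF3#1 overlapped with NI. The mean difference in PSI from shSCR was 35.1 for shCPSF3 (adjusted p = 0.0189, block 0.019) and 27.9 for shUL1 (adjusted p = 0.0541, block 0.0496). The shCPSF3 call was lost without any one of the 6 libraries (adjusted p from 0.0517 to 0.0889) with PSI in percent (0.0506), no weights (0.076) or only the groups compared (0.0884), and with shCPSF3#2 alone (adjusted p = 0.278), and shCPSF3#1 alone gave adjusted p = 0.013. The 2 shRNAs against *Cpsf3* differed by 2.18 ± 0.38 in the log2 ratio of inclusion to exclusion reads (unadjusted p = 0.000228, *limma*), a comparison chosen after the values were seen, and this did not pass the adjustment over all events (adjusted p = 0.686). shCPSF3 and shUL1 did not differ beyond the spread (7.23 in PSI, adjusted p = 0.745). T7-TIA1 had 39.1 and 38.9 against 34.5 and 37.9 in Empty, a difference of 2.80 (adjusted p = 0.826). Between 164 and 950 reads stood behind each of these PSI values. The part of the fibroblast marker sums, given above, in the exon's change was not tested.

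**Figure D4:**
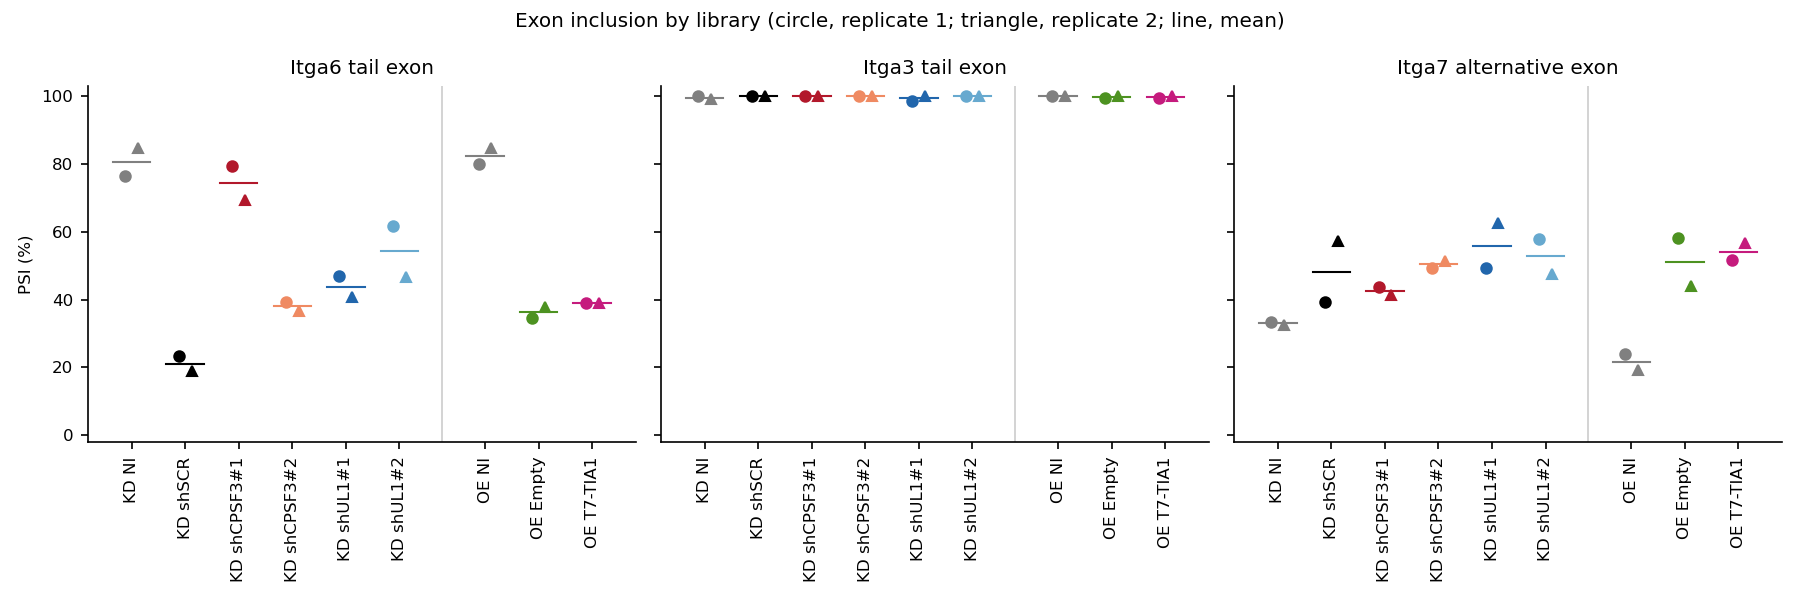
PSI (percent, y axis) of the *Itga6* tail exon, the *Itga3* tail exon and an *Itga7* exon in each library; circles are replicate 1, triangles replicate 2 and lines group means. The *Itga6* exon ranges from 18.8 in shSCR to 84.7 in NI, while the *Itga3* exon stays between 98.6 and 100.

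Multiplying the level of *Itga6* by the PSI of the exon separated the transcripts with and without it. Transcripts with the exon had 159 and 117 scaled CPM in NI and 28.3 and 34.5 in shSCR, and those without it had 49.3 and 21.2 in NI and 92.4 and 149 in shSCR. Thus a gene whose total level did not pass the test held fewer A and more B transcripts in both shSCR libraries than in both NI libraries. In Empty the form without the exon had 129 and 112 scaled CPM against 27.5 and 5.60 in NI, while the form with it had 67.9 and 68.2, inside the range of its NI libraries (109 and 31.0). With shCPSF3#1 the form without the exon had 8.03 and 24.7, below both shSCR libraries, and with shCPSF3#2, shUL1#1 and shUL1#2 it had 32.4 and 98.8, 26.4 and 88.2, and 30.2 and 81.4. The form with the exon had 21.1–71.1 over the 8 knockdown libraries, a range that included both shSCR libraries. These products were not tested.

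**Figure D5:**
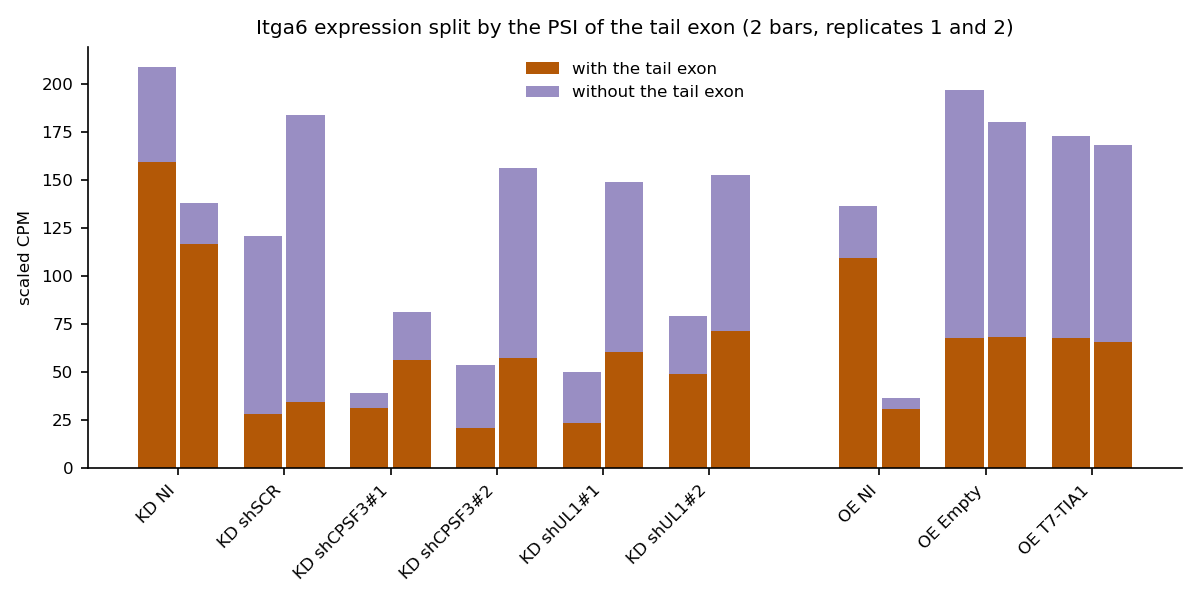
Expression of *Itga6* in scaled CPM (y axis) split by the PSI of the tail exon into transcripts with it (lower part of a bar) and without it (upper part), with a bar for each of the 18 libraries. Transcripts without the exon make up 92.4 and 149 scaled CPM in shSCR and 8.03 and 24.7 with shCPSF3#1.

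The corresponding exon of *Itga3* was included nearly always. The annotated event, chr11:95046477-95046590, had a PSI of 98.6 to 100 in all 18 libraries and of 100 in 14 of them, on 105 to 962 reads. A count of 0 exclusion reads allows a skipped share of up to 2.86% in the shallowest library and 0.312% in the deepest, counting error only. Nearly all *Itga3* transcripts thus held the exon of the A tail in every group, also where the level of the gene was lower. A shorter donor site of the same exon, which ends it 28 nt earlier, was used at a PSI of 2.2 to 10.1. In *Itga7*, the exon that gives its A tail, chr10:128956611-128956723, had a PSI of 0 to 3.77 in the 18 libraries, so among the 3 genes with alternative tails the exon was nearly always included in *Itga3*, nearly always skipped in *Itga7* and variable in *Itga6*.

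*Itga7* also carries a pair of exons, known as X1 and X2, that encode alternative stretches of its extracellular part and are usually not joined together. They are shown in lower case, as no part of them is singled out, from GRCm38 on the plus strand.
Itga7 132-nt exon, chr10:128941445-128941576: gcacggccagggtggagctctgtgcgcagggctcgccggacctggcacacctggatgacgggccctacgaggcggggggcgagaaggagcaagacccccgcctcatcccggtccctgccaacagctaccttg
Itga7 120-nt exon, chr10:128941822-128941941: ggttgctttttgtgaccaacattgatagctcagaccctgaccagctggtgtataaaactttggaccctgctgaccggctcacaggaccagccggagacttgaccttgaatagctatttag

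The annotated event of the second exon starts at an inner acceptor and spans 92 nt, chr10:128941850-128941941. Its PSI was 33.3 and 32.7 in NI of the KD dataset and 39.2 and 57.4 in shSCR, and 23.8 and 19.3 in NI of the OE dataset and 58.1 and 44.0 in Empty. In both datasets the day 12 controls lay above NI, by 15.3 and 29.5 on average. Both differences met the PSI rule, and neither passed the read-level test (adjusted p = 0.282 and 0.192). The 132-nt exon had means of 69.5 in NI and 54.2 in shSCR, and of 75.9 and 52.8 in the OE dataset, and did not meet the rule. Only 28 to 348 reads stood behind the values of the 92-nt event. The knockdown groups had mean PSI between 42.5 and 55.9 and T7-TIA1 54.1.

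Apart from these, few integrin events were intermediate. A pair of acceptors of *Itgav* 3 nt apart, chr2:83736510-83736640 in the annotation, was used at a PSI of 35.1 to 51.8 for one of them in all libraries. A 67-nt exon of *Itgb1*, chr8:128705413-128705479, had a PSI of 88.4 to 94.6 on at least 1500 reads. A 264-nt intron of *Itga5*, chr15:103353783-103354046, was retained at 6.90 to 24.3%. Group means of these 3 events ranged from 38.9 to 50.3, from 89.8 to 92.7 and from 7.68 to 18.5. None of them passed the test or the PSI rule in any comparison.

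Over the 18 libraries, the PSI of the *Itga6* tail exon could be set beside that of 2312 other cassette exons covered in all libraries with a range of at least 20. The 5 most like it by Pearson's r were a 21-nt exon of *Afdn* (0.934), a 27-nt exon of *Mark3* (0.931), a 21-nt exon of *Pcnt* (0.925), a 153-nt exon of *Pfkp* (0.923) and a 45-nt exon of *Foxm1* (0.923). In the *Afdn* exon, for example, the mean PSI was 82.3 in NI, 22.4 in shSCR, 68.5 with shCPSF3#1 and 38.0 with shCPSF3#2, near the values of the *Itga6* exon. For the levels over the 12 KD libraries, the genes most like *Itga6* among 9435 were *Tamm41* (0.979), *Qtrt1* (0.974) and *Chaf1b* (0.971), and those most like *Itga3* were *Plp2* (0.962), *Fip1l1* (0.958) and *Ddb1* (0.944). Libraries of a group are not independent points, and these r values are descriptions.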

How the data were processed

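RNA was measured in 18 libraries of MEFs in 9 groups of 2, and samples were grouped by the titles given by the authors, which place shUL1#2 at day 12 and NI of the OE dataset at day 0, unlike 1 field of the labels. Per the labels, the authors mapped stranded reads to mm10 with STAR 2.7.1a and obtained CPM with edgeR 3.16.5. The deposited expression values are a signal, CPM relative to a library size scaled for each library, of genes with at least 5 in at least 9 of the 12 KD libraries and in all 6 OE libraries. The authors quantified splicing with vast-tools and deposited PSI in percent for each event with its coverage score and reads; a score of VLOW or better, at least 10 reads, was required here.

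For expression, log2(scaled CPM + 1) was fitted with *limma* (3.58.1, R 4.3.3) using a variance trend, with all groups of a dataset together, so that fold changes of low genes are understated. Events were tested with *limma* and robust variances on log2 of inclusion over exclusion reads, 1 added to each, weighted by counting variance plus a floor of 0.05. Events with the same PSI in all libraries were left out. Adjustment was by Benjamini-Hochberg over all genes or events, tests were two-sided and the threshold was an adjusted p under 0.05. Both fits were tested on simulated data. Count models were not run, because the values are not counts.

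The integrin genes and all lists were chosen with earlier results of these data known. Named were all 10 integrin genes, at most the 3 largest called rises and falls of each of the 4 lists of related genes in each comparison with a control, the tail exons, and the events passing the test or the PSI rule, of which 17 with small changes are given only as a count; the other named events, of intermediate PSI, were chosen after their values were seen. Lengths and sequences came from the GENCODE annotation and transcripts of GRCm38, in which all 10 genes matched.

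Same-numbered libraries of the day 12 KD groups deviated together across genes (r from 0.674 to 0.949 over the 10 pairs of groups) and across events (0.173 to 0.455), so their numbers were taken as pairs; day 0 did not (−0.127 to 0.0218 across genes). Alternatives changed the pseudocount, filter, scaling, variance model, samples, weights and coverage, and left out each library in turn. Python 3.11.15 was used for tables. Precision is limited by 2 libraries per group and, for events, by the reads given.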

Additional observations from a re-analysis of the deposited data

Results flagged for a closer look

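Some integrin genes moved one way in every shSCR library and the other way in every Empty library, each against its own NI cells. *Itga3* was lower in shSCR (log2 fold change −0.46) and higher in Empty (0.95). *Itga1* was higher in shSCR (0.82) and lower in Empty (−0.39), and *Itga11* was higher in shSCR (0.44) and lower in Empty (−1.01). Only the *Itga3* changes passed the *limma* test. The differences between the datasets were not tested, since each table had its own scaling and the vectors differed. The NI cells themselves differed between the datasets, with 84.7 and 78.9 scaled CPM of *Itga3* in the one and 50.4 and 39.8 in the other.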

How the results depend on the processing

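No count of integrin gene calls changed with the pseudocount, a minimum mean or the variance model. Median scaling ended the calls of *Itgb5* in shSCR (adjusted p = 0.0729) and *Itga5* with shCPSF3 (0.0529). In shSCR against NI the count of 5 integrin genes was 3 with quantile normalization and 2 to 4 without single libraries. With shCPSF3 the count of 3 was 5 with the replicate block, 1 with only the groups compared, 1 with shCPSF3#2 alone and 1 to 3 without single libraries. With shUL1 the count of 1 was 3 with the replicate block, 0 with only the groups compared and 0 to 2 without single libraries. In Empty it stayed within 4 to 8 of 6. The direction of *Itga6* in shSCR (−0.19) turned to 0.11 without NI replicate 1 and to 0.11 without shSCR replicate 1, and was −0.49 without shSCR replicate 2. Other reversals were of differences that had not passed, with these log2 ranges without single libraries: *Itgb3* −0.14 to 1.56 in shSCR and −1.63 to 0.064 with shUL1, *Itga11* −0.45 to 0.12 with shCPSF3 and −0.38 to 0.17 with shUL1, *Itgav* −0.14 to 0.74 and −0.34 to 0.53, and *Itga5* −0.032 to 0.62 with shUL1. Between shCPSF3 and shUL1 they were *Itga1* −0.14 to 0.23, *Itga7* −0.20 to 0.64, *Itga11* −0.35 to 0.22 and *Itgb5* −0.031 to 0.29, and in T7-TIA1 *Itga5* −0.11 to 0.32 and *Itgb5* −0.16 to 0.072. With a single shRNA, *Itgav* had −0.017 with shCPSF3#2 and −0.027 with shUL1#1, and *Itga11* 0.18 with shUL1#1. With the replicate block *Itga7* passed in shSCR (adjusted p = 0.0198), although same-numbered NI libraries did not deviate with the others. The numbers of the OE groups correlated weakly (0.171 to 0.308 across genes), and the block changed none of their counts of integrin genes or read-level events, while in Empty the lower adhesion, ligand and membrane-partner genes went from 16, 10 and 3 to 18, 11 and 4.

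Read-level event counts depended more on the model. In shSCR the 18 events were 1 with PSI in percent, 32 with no weights, 0 with only the groups compared, 1 with reads added in proportion to depth (chosen after seeing the data) and 1 to 4 without single libraries. With shCPSF3 the 1 event was 0 with PSI in percent, no weights, only the groups compared or shCPSF3#2 alone, 4 with the replicate block and 0 to 2 without single libraries. With shUL1 the 0 events were 1 with no robust variances and 1 with the replicate block. In Empty the 1 event was 0 with PSI in percent, no weights, only the groups compared or without any single library. By the PSI rule, counts with no minimum range were 2 for shCPSF3 and 4 for Empty, and without single libraries 2 to 4 for shSCR, 1 to 3 for shCPSF3, 1 to 2 for shUL1, 2 to 4 for Empty and 0 to 3 for T7-TIA1. The cause was not tested. Over the 10 genes in 6 comparisons and 8 comparisons of named exons, 839 alternatives kept direction and call, 53 lost a call, 14 gained one and 33 reversed. Count tests planned as alternatives were not run, because the values are not counts. With 2 libraries per group, a difference that did not pass may still exist.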
